A study of Homo sapiens with 9 samples.

Results

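IFNLR1 and IL10RB encode the 2 chains of the interferon lambda receptor, and they are the 2 rows, of 26008 gene rows in all, described here. They were picked by name, 1 row each, and IFNLR1 was picked because its counts were lower with V. cholerae vesicles than in controls. That contrast therefore chose the IFNLR1 row, and its size is given as a description without a test. All 9 libraries come from HCT8, a long-established human colorectal adenocarcinoma line of ileocecal origin, and each treatment lasted 5 h. The 3 groups of 3 libraries were a control, cells given membrane vesicles of Vibrio cholerae C6706, and cells given membrane vesicles of Escherichia coli MC1061, the vesicles being pieces of outer envelope that bacteria release. Controls are labelled as without treatment, while the protocol describes 20 mM Tris-HCl for them. No source says that replicates were separate cultures, and the p-values then reflect only how far these libraries differ, which may be technical.

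Interferon lambda, the type III interferon, acts mainly on epithelial cells because IFNLR1, the chain that binds it specifically, is restricted in its expression. IL10RB is the shared chain, used also by the receptors for IL-10, IL-22 and IL-26. The complex signals through the kinases JAK1 and TYK2 to transcription factors that include STAT2 and IRF9, which switch on interferon-stimulated genes, and in the gut this pathway is known for control of enteric viruses.

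The start regions of both genes are shown because they are the regulatory sequence nearest to the transcripts described, and no measurement here reads them directly. Each line gives the 250 bases before the annotated start from RefSeq on GRCh38.p14, 5′ to 3′ on the gene's own strand, with matches to 5 motifs in capitals. IFNLR1 is at chr1:24187290-24187539 (minus strand) and IL10RB at chr21:33266117-33266366 (plus strand).
IFNLR1: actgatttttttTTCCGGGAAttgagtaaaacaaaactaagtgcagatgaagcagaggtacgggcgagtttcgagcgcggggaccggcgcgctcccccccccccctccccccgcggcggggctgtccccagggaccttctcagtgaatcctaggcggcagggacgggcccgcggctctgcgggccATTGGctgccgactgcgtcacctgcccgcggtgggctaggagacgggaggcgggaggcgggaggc
IL10RB: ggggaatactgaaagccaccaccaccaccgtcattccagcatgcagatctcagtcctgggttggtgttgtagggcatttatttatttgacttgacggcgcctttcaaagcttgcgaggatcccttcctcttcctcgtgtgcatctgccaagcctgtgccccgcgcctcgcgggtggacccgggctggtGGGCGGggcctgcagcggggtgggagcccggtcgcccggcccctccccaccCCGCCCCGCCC
The motifs were searched on both strands. The IFNLR1 window held 1 match to the STAT dimer site TTCNNNGAA, 238 nt before the start, which 6.57% of 35116 promoters of this length also held, and 1 CCAAT box (CCAAT), 65 nt before the start, held by 32.0% of promoters. The IL10RB window held neither of these and 3 GC boxes (GGGCGG), of which the pair nearest the start overlap each other, and 42.6% of promoters held at least 1. Neither window held the interferon-stimulated response element (3.02% of promoters) or the NF-kB site (1.73%). A match is a run of letters and not a site shown to be bound.

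The deposited values are whole-number counts, and totals ran from 363557 to 405504 per library in replicates 1 and 2 and from 425884 to 733412 in replicate 3. CPM are counts scaled to library size, per 1e6, with edgeR's factors, and 3 counts are worth 3.88 to 9.07 CPM. Replicate 3 stood apart: rows without an exon of another gene on the opposite strand took 16.1% to 16.3% of matched counts there and 12.5% to 13.7% in replicates 1 and 2. Most counts in this table lie in rows with such an opposite exon. For example, KRT8 lies opposite an exon of KRT18 and held 7550 to 11346 counts per library, KRT18 held 56 to 96, and ACTB and EEF1A1, genes that nearly every cell transcribes strongly, held only 21 to 34 and 14 to 37. Rows here may thus hold reads of the strand opposite the named gene, and the values below are those of the rows named IFNLR1 and IL10RB, which may not be the genes' sense transcripts. From which strand their reads came was not tested. Of 16 epithelial marker rows, 0 were at 0 counts, although KRT20 held 2 and LGALS4 held 1 over all libraries. The summed level of the list, nearly all of it KRT8, was 22072 to 31490 CPM in controls, 14406 to 23933 CPM after V. cholerae vesicles and 17328 to 28858 CPM after E. coli vesicles. Of its 3 tested rows (KRT8, KRT18 and EPCAM) 3 had negative log2 fold changes with V. cholerae vesicles (median -0.36), and 0 were called by group. KRT8 was called with the replicate number as a block (-0.50 ± 0.08, edgeR adjusted p = 0.00430). Of all 3679 tested rows 49.2% had negative log2 fold changes in this comparison by group. edgeR called 0.0544% of them by group and 0.353% with the block. With 3 rows tested, no change of the list is read from this. PTPRC, CD3E, VWF and COL1A2, defining genes of leukocytes, T cells, endothelium and fibroblasts, were at 0. They are 4 of 9 rows for other cell types, in which CD68 held 375 counts in all, CD14 95 and PECAM1 62, and the summed level of the list was 118 to 159 CPM in controls, 99.0 to 140 CPM after V. cholerae vesicles and 133 to 182 CPM after E. coli vesicles. The part of either list in the results was not tested.

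IFNLR1 lies on the minus strand of chromosome 1 and IL10RB on the plus strand of chromosome 21. In GENCODE 29 the IFNLR1 row (XLOC_001430) matches a coding gene with 4923 nt of merged exons in 8 blocks and no exon of another gene opposite them, and the nearest gene on the opposite strand, AL590683.1, is 12.3 kb away. The IL10RB row (XLOC_015159) also has no opposite exon. Its nearest gene on the opposite strand, IL10RB-DT, which the table names IL10RB-AS1, starts 0.098 kb away and points in the other direction.

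The IFNLR1 row was highest in controls, lower with E. coli vesicles and lowest with V. cholerae vesicles. It held 56, 65 and 64 counts in control replicates 1, 2 and 3, which are 169, 178 and 127 CPM. With V. cholerae vesicles it held 9, 11 and 44 counts, or 26.2, 32.1 and 56.9 CPM. With E. coli vesicles it held 38, 24 and 47 counts, or 110, 69.2 and 104 CPM. No library of one group overlapped a library of another in CPM, and the nearest pair was V. cholerae replicate 3 and E. coli replicate 2. In 3.64% of all tested rows the V. cholerae libraries were all below the controls, a share given without a reading since that contrast chose the row. Counting error alone is wide at this depth: the 95% Poisson interval was 41.3 to 76.4 CPM for V. cholerae replicate 3 and 44.4 to 103 CPM for E. coli replicate 2.

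**Figure D1:**
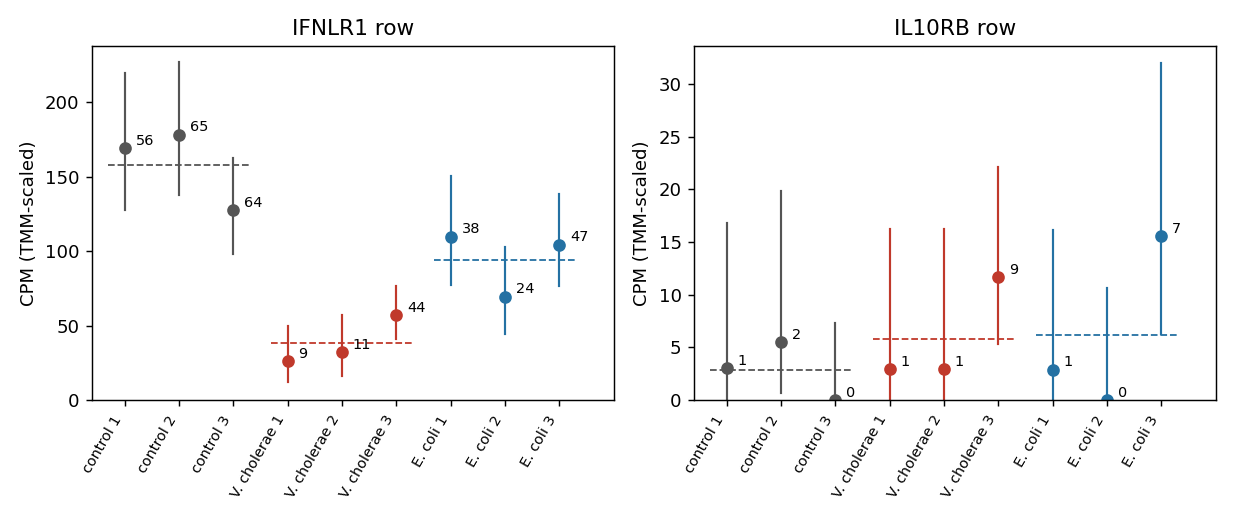
CPM of the IFNLR1 row (left) and the IL10RB row (right) in each of the 9 libraries. Points are libraries with their raw count beside them, vertical bars are 95% Poisson intervals that cover counting error only, and dashed lines are group means. The IFNLR1 points of the 3 groups do not overlap, and IL10RB exceeds 2 counts only in V. cholerae replicate 3 and E. coli replicate 3.

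Group means of IFNLR1 were 158 ± 27.1 CPM in controls, 94.4 ± 22.0 CPM after E. coli vesicles and 38.4 ± 16.3 CPM after V. cholerae vesicles (SD, n = 3). The V. cholerae mean was 24.2% of the control mean and the E. coli mean 59.6% of it. Fewer cells that express a gene and less RNA per cell cannot be told apart in bulk RNA.

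Against control, the V. cholerae vesicles gave a log2 fold change of -1.95 ± 0.34 (SE), the contrast by which the row was chosen. In the edgeR fit by group 2 of 3679 tested rows (0.0544%) were called at an adjusted p under 0.05, IFNLR1 being 1 of them by construction, and with the replicate number as a block 13 rows (0.353%) were. The other row inside that threshold was B3GALT6 (log2 3.09), and the first row outside it was C5orf45 (log2 1.36). No test is read for IFNLR1 from this, and its place inside the threshold is lost with limma voom, with library size alone and with only the 2 groups fitted. IFNLR1 had the lowest log2 fold change of all 3679 rows. The distance from control differed between replicates: V. cholerae replicates 1 and 2 stood at 15.5% and 18.0% of the same-numbered control, and replicate 3 at 44.6%. Replicates 1 and 2 alone gave log2 -2.57, a fold more than 1.5 times that of all libraries.

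E. coli vesicles gave a log2 fold change of -0.73 ± 0.32 (SE) for IFNLR1 against control, which did not pass edgeR's quasi-likelihood test (adjusted p = 0.390, and 0.145 with the block, where 2.28% of all rows were called). The E. coli libraries stood at 64.9%, 38.8% and 81.8% of the same-numbered controls, so all 3 were lower, and in 8.70% of all tested rows all E. coli libraries were below all controls. This comparison shares its 3 control libraries with the one that chose the row, which were high there. By log2 fold change IFNLR1 was only the 314th lowest row here. In replicates 1 and 2 alone the value was -0.95 (edgeR adjusted p = 0.00446; over all alternatives it reached 0.983). Replicates 1 and 2 differ less from each other than from replicate 3, with a chi-square per degree of freedom of 1.05 to 1.90 against 4.78 to 8.76, so a p from them rests on a narrow spread.

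Set directly against E. coli vesicles, V. cholerae vesicles gave a log2 difference of -1.22 ± 0.34 (SE) for IFNLR1, the 17th lowest of 3679 rows. It did not pass edgeR's test (edgeR adjusted p = 0.318, and 0.0895 with the replicate block). V. cholerae libraries stood at 23.9%, 46.3% and 54.6% of the same-numbered E. coli libraries, so the row was lower in 3 of 3, and in 4.10% of all tested rows all V. cholerae libraries were below all E. coli libraries. The V. cholerae libraries here are those whose low counts chose the row, so this p is not independent of the choice. A difference between the vesicle groups was thus not called, except in replicates 1 and 2 alone (-1.61, edgeR adjusted p = 0.00119; over all alternatives it reached 0.999) and, with the block, when V. cholerae replicate 3 (-1.74) or E. coli replicate 3 (-1.05) was left out. In order of level, control and E. coli, and E. coli and V. cholerae, are neighbours that did not differ by the test over all libraries.

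When only rows without an opposite-strand exon were fitted (1099 rows tested), an alternative added after the data were seen, the log2 values of IFNLR1 were -2.04 against control with V. cholerae vesicles, -0.78 with E. coli vesicles and -1.25 between vesicles. In the fit of all rows, the 1239 tested rows of this class had median log2 fold changes of 0.03, 0.01 and 0.03.

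By mean CPM in controls the IFNLR1 row was 74th of 12660 coding rows without an opposite-strand exon, and by CPM per kb of merged exons (32.2) it was 112th. The control values also entered the choice of the row. ACTB, at 22.3 CPM per kb, was 153rd, so with the doubt over strand these ranks are of rows in this table and not of the genes' transcripts.

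IL10RB, the shared chain, was near the limit of detection in every group. The row held 1, 2 and 0 counts in controls, 1, 1 and 9 with V. cholerae vesicles and 1, 0 and 7 with E. coli vesicles. These are 2.84 ± 2.75, 5.82 ± 5.04 and 6.14 ± 8.26 CPM (SD, n = 3), and the groups overlap. V. cholerae replicate 3 and E. coli replicate 3 are the high libraries, and control replicate 3 held 0. The row did not pass the filter on low counts. By a two-sided exact permutation test of CPM, V. cholerae vesicles against control gave p = 0.6, E. coli vesicles against control p = 0.9 and the vesicle groups p = 1, where the smallest p that 3 against 3 libraries allow is 0.1. A difference in IL10RB was not detectable at this depth. Per kb, the control level was 0.624 CPM for IL10RB and 32.2 CPM for IFNLR1. The 9 libraries held 358 counts of IFNLR1 and 22 of IL10RB in all, so the specific chain's row held many more reads than that of the shared chain.

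The other genes of the pathway are given from lists by role, as rows by name. The interferon lambda ligand rows were almost empty: IFNL1, IFNL2 and IFNL3 held 0 counts and IFNL4 held 1 over the 9 libraries. With the doubt over strand, this describes the rows and not whether the ligands' transcripts were present. Of 12 rows of the class II cytokine receptor family, to which both chains belong, 2 had enough counts for the test. The other was IFNGR2, the signalling chain of the interferon gamma receptor, whose mean level was 88.9 ± 44.5 CPM in controls, 112 ± 18.96 CPM after V. cholerae vesicles and 123 ± 14.4 CPM after E. coli vesicles (SD, n = 3). Its groups overlapped and its log2 fold changes of 0.32 ± 0.34 and 0.44 ± 0.34 (SE) did not pass over all libraries. With E. coli vesicles it was called in replicates 1 and 2 alone (1.02), which have a narrow spread. With the replicate block it was also called when E. coli replicate 3 was left out (0.78). Its exons overlap those of TMEM50B on the opposite strand. The type I interferon receptor chains had few counts, 1 to 8 per library for IFNAR1 and 0 to 10 for IFNAR2. IL22RA1, which pairs with IL10RB to bind IL-22, held 2 counts in control replicate 1 and 0 in the other 8 libraries.

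None of the 9 rows for kinases and transcription factors of the pathway passed the filter. STAT2, a subunit of the factor that carries the signal to the nucleus, had the most counts, 3, 3 and 10 in controls, 6, 3 and 13 with V. cholerae vesicles and 8, 8 and 12 with E. coli vesicles. In CPM its E. coli libraries (23.11, 23.08 and 26.6) were above all controls (9.07, 8.23 and 19.9). They were also above all V. cholerae libraries (17.5, 8.75 and 16.8), as in 4.10% of all tested rows. The share of all tested rows with all E. coli libraries above the controls is not given here, so the STAT2 values lack that background. The STAT2 row held only 3 to 13 counts per library and was not tested, so no difference is read from it. JAK1, a kinase bound to the receptor, held 2 to 11 per library.

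Of 9 negative regulators 3 were tested and 0 were called in any comparison. PTPN6, the phosphatase SHP-1, stood at 51.4, 41.1 and 41.8 CPM in controls, 55.3, 55.4 and 68.5 CPM after V. cholerae vesicles and 28.9, 40.4 and 31.1 CPM after E. coli vesicles. Its V. cholerae libraries were thus all above the controls, as in 4.92% of all tested rows, and its E. coli libraries all below. The log2 difference between the vesicles was 0.85 ± 0.33 (SE; edgeR adjusted p = 0.442). PTPN2, a phosphatase that acts on JAK and STAT proteins, had log2 fold changes of 0.54 ± 0.45 with V. cholerae and 0.43 ± 0.46 with E. coli vesicles, and PIAS3, a STAT inhibitor, -0.42 ± 0.36 and 0.01 ± 0.35. In the list of genes that induce interferon, the adaptor MAVS (-0.58 ± 0.43 and -0.16 ± 0.43) and the transcription factor IRF3 (-0.0044 ± 0.44 and 0.54 ± 0.43) were tested and not called.

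Among the interferon-stimulated genes, the targets of the pathway, 113 rows carried 64 names, because HLA and neighbouring genes have several rows, and 67 of these rows held 0 counts. Over the 8 rows tested the median log2 fold change was 0.12 with V. cholerae vesicles, 2 lower and 6 higher, and -0.10 with E. coli vesicles, 6 lower and 2 higher, where the medians of all tested rows were 0.01 and -0.01. None was called. IFIT1, which binds foreign RNA, stood at 12.1, 24.7 and 29.9 CPM in controls, 17.5, 29.2 and 53.0 CPM after V. cholerae vesicles and 14.4, 20.2 and 55.5 CPM after E. coli vesicles. Replicate 3 was the highest library in all groups for IFIT1, and the groups overlapped. IRF1, an interferon-induced transcription factor, had log2 fold changes of 0.09 ± 0.40 and -0.26 ± 0.42, and ZC3HAV1, an antiviral RNA-binding protein, 0.42 ± 0.40 and 0.16 ± 0.41.

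PARP9, an ADP-ribosyltransferase that partners DTX3L and whose exons overlap DTX3L on the opposite strand, differed between replicates. It held 32, 40 and 50 counts in controls, 39, 54 and 58 with V. cholerae vesicles and 6, 2 and 42 with E. coli vesicles. E. coli replicates 1 and 2 were thus far below all other libraries and E. coli replicate 3 was near the controls. The log2 fold change of -1.31 ± 0.55 (SE) with E. coli vesicles was not called over all libraries (edgeR adjusted p = 0.377). Without E. coli replicate 3, a fit picked out after these counts were seen, it was -3.11 ± 0.50 (SE). No p is read from that fit, since it drops the library that differed and E. coli replicates 1 and 2 alone have a narrow spread.

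Over the 14 tested pathway rows other than IFNLR1, edgeR called 0 with V. cholerae vesicles, 0 with E. coli vesicles and 0 between the vesicles, with and without the replicate block. At an unadjusted p under 0.05 in edgeR's fit by group, 0, 1 and 2 of the 14 rows passed, beside 100, 414 and 333 of all 3679 rows. DESeq2 and limma voom also called 0 of the 14, and the share of all rows that they called was not counted. Over all 3679 rows edgeR called 0.0544% with V. cholerae vesicles, 0.190% with E. coli vesicles and 0% between the vesicles by group, and 0.353%, 2.28% and 0.0544% with the block. Most pathway rows had too few counts to be tested, and 9 of these 14 have an exon of another gene on the opposite strand.

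**Figure D2:**
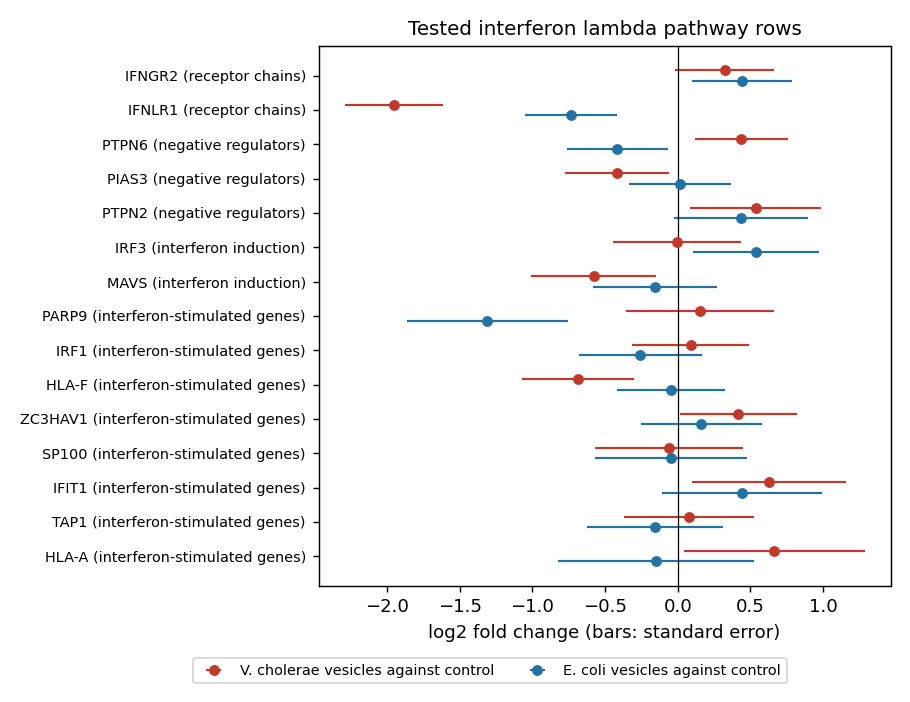
Log2 fold changes against control (horizontal axis) of the 15 tested pathway rows, with V. cholerae vesicles in red and E. coli vesicles in blue, and bars of 1 standard error. IFNLR1, chosen for its value with V. cholerae vesicles, lies at -1.95 and -0.73, and among the other rows PARP9 with E. coli vesicles lies farthest from 0, at -1.31.

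The genes next to IFNLR1 on chromosome 1 were not called in any comparison. Of the 5 annotated genes with a row on each side, SRSF10, a splicing regulator, PNRC2, a factor in mRNA decay, and NCMAP, a myelin-associated protein, were tested. Their log2 fold changes with V. cholerae vesicles were -0.24 ± 0.42, -0.03 ± 0.42 and -0.26 ± 0.45, and with E. coli vesicles -0.19 ± 0.43, 0.49 ± 0.41 and -0.11 ± 0.46, none of which passed edgeR's test. GRHL3, an epithelial transcription factor gene and the next gene with a row above IFNLR1 in coordinates, held 0 to 7 counts per library, and MYOM3 held 2 to 15.

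Around IL10RB on chromosome 21 lie IFNAR2, IFNAR1 and IFNGR2, so 4 receptor chains stand in a row. The IL10RB-AS1 row, whose exons lie opposite the end of IFNAR2, held 8, 11 and 8 counts in controls, 18, 22 and 23 with V. cholerae vesicles and 4, 7 and 12 with E. coli vesicles. In CPM its V. cholerae libraries (52.4, 64.1 and 29.7) were all above the E. coli libraries (11.6, 20.2 and 26.6), as in 7.80% of all tested rows, and V. cholerae replicate 3 lay within the range of the controls. Its log2 values were 1.02 ± 0.44 with V. cholerae vesicles and -0.21 ± 0.49 with E. coli vesicles against control, and 1.23 ± 0.45 between the vesicles (edgeR adjusted p = 0.391), and no comparison was called. The TMEM50B row, whose exons lie opposite IFNGR2, had means of 259 ± 70.6 CPM in controls, 407 ± 143 CPM after V. cholerae vesicles and 400.5 ± 99.5 CPM after E. coli vesicles (SD, n = 3). Its log2 fold changes of 0.65 ± 0.31 and 0.63 ± 0.31 were not called (with the block, edgeR adjusted p = 0.164 and 0.0522).

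**Figure D3:**
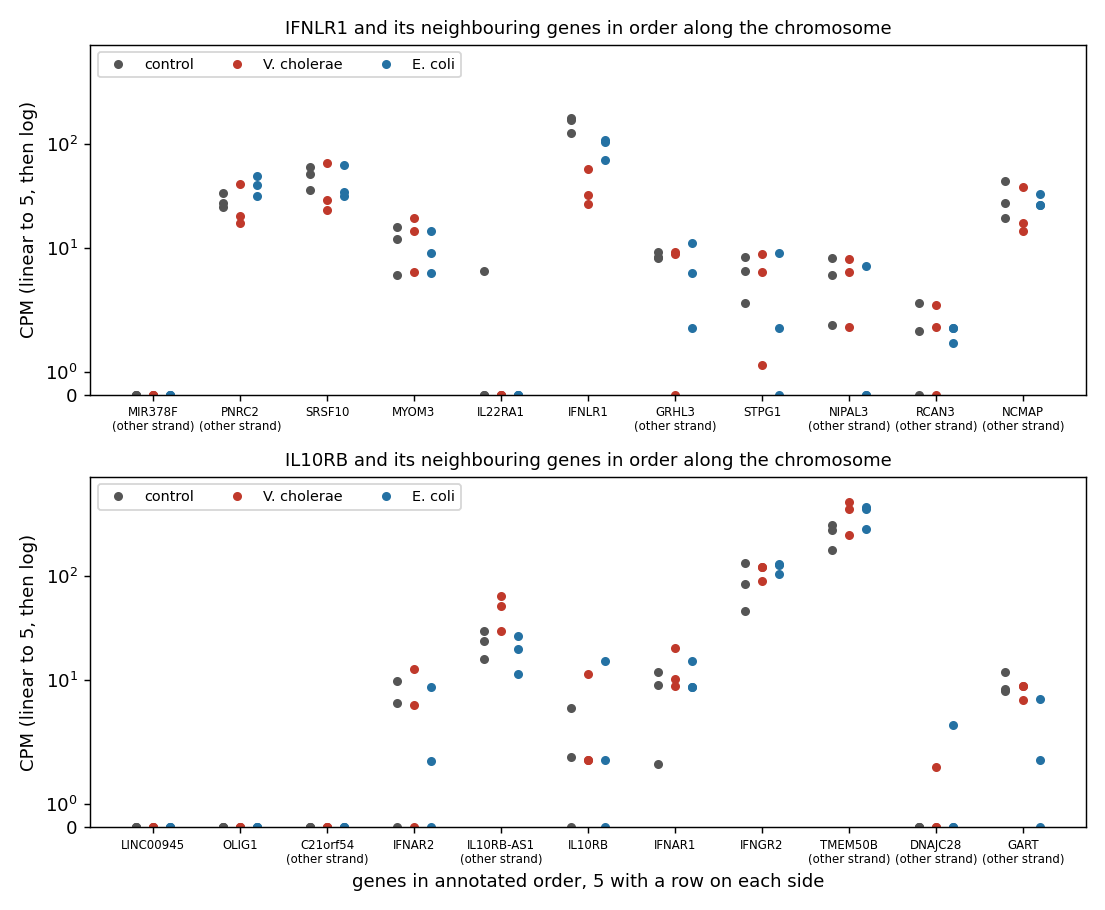
CPM in each library (vertical axis, linear to 5 and logarithmic above) for IFNLR1 and for IL10RB with the genes beside them in annotated order, points coloured by group. In controls IFNLR1 stands above its neighbours, and its groups are separate, but its control and V. cholerae values chose the row. The groups of SRSF10, PNRC2 and NCMAP, which were not chosen by their values, overlap. Of all tested rows only 3.64% had all V. cholerae libraries below the controls.

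The rows whose pattern over the 9 libraries was most like that of IFNLR1 were found by Pearson's r of log2 CPM among the other 3678 tested rows, given as a description. All libraries share 1 set of scaling factors, and the highest of 3678 values are shown. The closest were CAMK1, of a calcium-dependent kinase and opposite OGG1 (r = 0.94), and UBN1, of a histone chaperone and opposite GLYR1 (r = 0.92). VCL, of vinculin and opposite AP3M1 (r = 0.86), MAP3K14-AS1, opposite MAP3K14 (r = 0.85), and TNFSF12-TNFSF13, a readthrough of a pair of cytokine genes (r = 0.84), followed. UBN1 held 465, 428 and 446 CPM in controls, 262, 321 and 344 CPM after V. cholerae vesicles and 358, 320.3 and 390 CPM after E. coli vesicles. All of its vesicle libraries were below all controls, a pattern that its choice by likeness to IFNLR1 favours. All V. cholerae libraries were below the controls in 3.64% of tested rows, all E. coli libraries in 8.70%, and both together were not counted. The log2 fold changes of UBN1, -0.53 ± 0.22 and -0.32 ± 0.22, were smaller than those of IFNLR1. MAP3K14-AS1 had log2 values of -0.996 ± 0.33 and -0.23 ± 0.32. Rows named only by a locus label such as LOC or LINC were passed over. Among the rest, the most opposite patterns were those of RAB6B, of a Rab GTPase and opposite SRPRB (r = -0.93), and SRMS, of a Src-family-related kinase (r = -0.93). TFAP2A-AS1, opposite the transcription factor gene TFAP2A (r = -0.92), followed. None of these 8 rows was called in any comparison by edgeR.

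**Figure D4:**
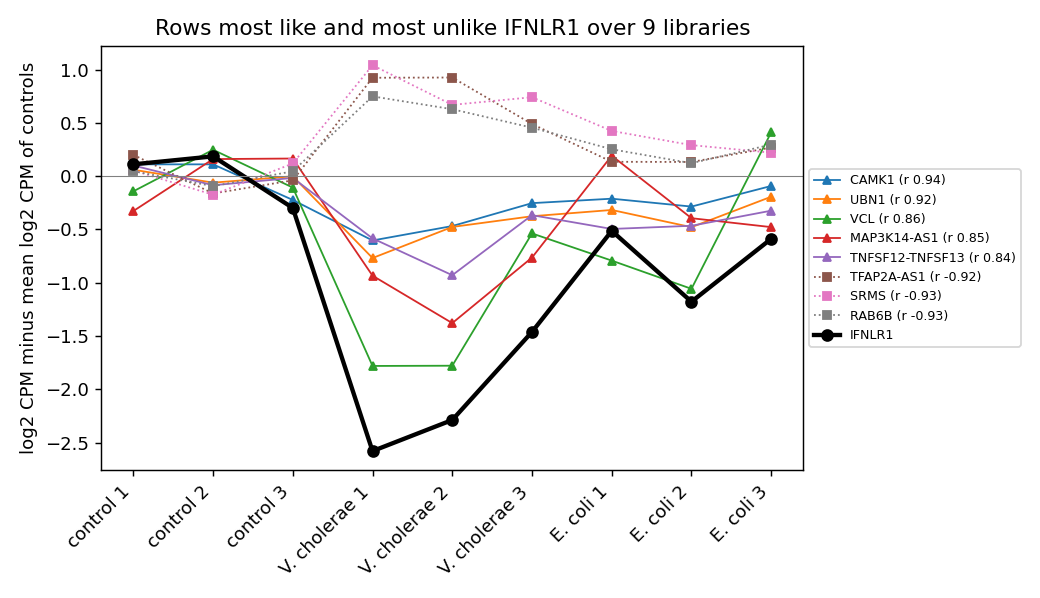
Log2 CPM minus the mean log2 CPM of the controls (vertical axis) in each library for IFNLR1 (black), the 5 rows most like it (triangles) and the 3 most unlike it (squares, dotted). Rows named only by a locus label were passed over. IFNLR1 goes lower than any of the others, and V. cholerae replicates 1 and 2 are its lowest libraries.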

How the data were processed

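Polyadenylated RNA of 9 HCT8 libraries was sequenced as single 50 bp reads of TruSeq stranded libraries, per the labels' protocols. The authors deposited raw counts per gene row. The submitters' processing notes list hg19 and, without their roles, HTSeq 0.6.1, TopHat2 2.0.12, Bowtie2 2.2.3 and Cufflinks 2.2.1. No source used here states the strand setting or annotation.

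Counts were tested with edgeR 4.0.16 (R 4.3.3): filterByExpr (minimum count 10, minimum total 15), TMM, robust quasi-likelihood F-test by group over all libraries, Benjamini-Hochberg over 3679 rows, called under 0.05. The SE is the log2 fold change over the square root of F. limma 3.58.1 (voom) and DESeq2 1.42.0 were alternatives. Log2 CPM used a prior count of 2. Correlations of same-numbered libraries' deviations from group means were 0.115 to 0.677, all above 0.1, so a replicate block was also fitted. Libraries of different numbers correlated at 0.133 to 0.350 within replicates 1 and 2, so the numbers set apart only replicate 3. In simulated data for V. cholerae vesicles against control, the fit called 0 of 67 rows changed 1.5-fold and 11 of 67 changed 2-fold. It called 55 of 66 changed 4-fold, with 4 false calls. A row that was not called may thus still have changed.

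Rows were matched by name to GENCODE 29 (24116 of 26008) for strand, exon length, opposite exons and gene order, and no coordinate of it was set on the counts, since its build differs. Named rows were drawn from the members, list rows whose mean reached 2 CPM (up to 8 per list, by level) and any called row. The 5 neighbours on each side and the 5 most and 3 least alike rows, with locus labels such as LOC or LINC passed over, were further sources. Not all rows that qualified are described, for example STAT3 (mean 12.8 CPM), PTPN11 (6.78 CPM) and F3 (5.71 CPM). PARP9 without a replicate and marker rows below that level were named after their values were seen. The members and lists were chosen with earlier results of these data known. Floors of 3 counts and Poisson intervals cover counting error only. One pathway row is not reported here.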

Additional observations from a re-analysis of the deposited data

Results flagged for a closer look

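The PTPN6 row, of the phosphatase SHP-1, had all V. cholerae libraries above and all E. coli libraries below the controls, which is why it is listed. Of 3679 tested rows 5 (0.136%) had this joint pattern, 4.92% had all V. cholerae libraries above the controls and 8.70% all E. coli libraries below them. The search took the reverse pattern too, E. coli above and V. cholerae below all controls, which 1 row (0.0272%) had. The difference between the vesicles was 0.85 on the log2 scale, and edgeR's test of it did not pass (adjusted p = 0.442). PTPN6 was the only row with either pattern among the tested pathway rows and neighbours searched.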

How the results depend on the processing

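The log2 value of IFNLR1 stayed negative in all 30 alternatives of each comparison: -2.57 to -1.69 for V. cholerae vesicles against control, -1.07 to -0.48 for E. coli vesicles against control and -1.74 to -0.94 between the vesicles. Leaving out 1 library gave -2.42 to -1.78, -0.87 to -0.56 and -1.69 to -1.03, and with the replicate block -2.46 to -1.69, -1.07 to -0.48 and -1.74 to -0.94. Replicates 1 and 2 only gave -2.57, -0.95 and -1.61, the last 2 being calls. With the block, leaving out E. coli replicate 3 also gave calls (-0.81 and -1.05), as did leaving out V. cholerae replicate 3 between the vesicles (-1.74). The block on its own changed no call.

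The count of called pathway rows with V. cholerae vesicles, 1 (IFNLR1, which that contrast chose), was 0 with library size alone, with only the 2 groups compared, with limma voom and with V. cholerae replicates 1 and 2 summed, and 0 to 1 when a library was left out, with or without the block. The libraries whose omission gave 0 were replicates 1 and 2 of the controls and of V. cholerae. With E. coli vesicles the count of 0 became 3 in replicates 1 and 2 only (IFNLR1, IFNGR2 and PARP9). It was 0 to 1 without a library, and 0 to 3 with the block, where the same 3 rows were called without E. coli replicate 3. Between the vesicles it became 1 with no filter and 2 in replicates 1 and 2 only, and 0 to 1 without a library (0 to 2 with the block). Outside the main fit and the replicate block, the share of all rows called was not counted. These counts are therefore not read as a result about the pathway, and the cause of their changes was not tested.

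The IL10RB difference in mean CPM was 2.99, 3.30 and -0.32 for V. cholerae and E. coli vesicles against control and between the vesicles. Replicates 1 and 2 only reversed all 3 (-1.27, -2.66 and 1.38). Without a library it ran 0.074 to 4.36, -1.38 to 6.32 and -3.36 to 4.29, with reversals without E. coli replicate 3 (-1.38 and 4.29), V. cholerae replicate 1 (1.18) and V. cholerae replicate 2 (1.13). The paired exact permutation with the replicate block gave the same differences and p = 1. Other fits were not run for IL10RB, whose row is not tested, except that without a filter edgeR gave adjusted p = 0.955, 0.824 and 1.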
